A study of Mus musculus with 16 samples.

Results

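The mitochondrial ribosomal protein genes were examined in the striatum of mice given the antipsychotic risperidone. They were chosen by name: a gene entered where the platform annotation gave its probe set a single symbol made of Mrpl or Mrps, a number and at most 1 further letter. The rule found 73 of the 17097 genes that the arrays name by a probe set of their own, 46 Mrpl and 27 Mrps genes. By the known place of their proteins, 48 belong to the large subunit and 24 to the small subunit. These counts put Mrps18a and Mrps30, whose products sit in the large subunit, with the large subunit. Mrps36, now known as a component of the 2-oxoglutarate dehydrogenase complex, was kept apart. All 73 were matched to RefSeq by gene identifier and none had changed symbol.

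Total RNA came from the striatum of 16 male mice aged 7 to 8 weeks, with 1 array per mouse and 4 mice per group. The A/J control group and the A/J risperidone group were of the substrain A/JOlaHsd, and the DBA/2J control and DBA/2J risperidone groups of DBA/2JRccHsd, both inbred and with no engineered allele. Risperidone, which blocks dopamine D2 and serotonin 5-HT2A receptors, was injected intraperitoneally at 1 mg/kg once a day for 3 days. The labels call the control mice untreated, although a common protocol text mentions saline. Levels are log2 values per probe set as deposited, so a difference of 1 is a doubling. With 4 arrays per group, the number of arrays limits the precision.

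Mitochondria keep a small genome of their own, which codes for core subunits of the respiratory chain complexes, and read it with a ribosome of their own. The RNA of that ribosome is made in the mitochondrion, but all of its proteins are encoded in the nucleus, made in the cytosol and imported. Many descend from bacterial ribosomal proteins (42 of the 73 genes here), while others (30) were added in the mitochondrial lineage. Neurons depend on oxidative phosphorylation, and loss of single mitoribosomal proteins causes disease of brain, heart and other tissues with a high energy demand.

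Some arrays stood apart before any comparison. DBA/2J control replicate 4 correlated with the other arrays at 0.970 to 0.979 over all probe sets, where the other 15 correlated with each other at 0.986 to 0.995. Every comparison that uses the DBA/2J control group is therefore given with and without it. In A/J risperidone replicates 1, 2 and 4, probe sets that separate the strains lay 28.5%, 36.5% and 39.7% of the way from the A/J to the DBA/2J control level, against 0.283% in replicate 3. This share was taken on unlogged levels. In DBA/2J risperidone the same share lay between 87.3% and 101.954%. For the comparisons with A/J risperidone, values are also given with replicate 3 as the only A/J risperidone array. The spread in that fit comes from the other groups alone, and the lone array is assumed to vary as they do, so a gene that misses the threshold there says nothing on whether it differed. DBA/2J risperidone replicates 2, 3 and 4 share the text of 1 description, but no pair of arrays in the study differed at fewer than 43750 probe sets. Among the markers of the tissue, Pde10a lay at 7.37 to 8.07 and Drd1 at 5.85 to 6.51 over all arrays, while Drd2 lay at 3.62 to 4.90, so its lowest array was near the bottom of the array's range (percentile 8.50).

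The start regions of these genes were read from RefSeq (GRCm38.p6), since genes of 1 complex are often compared by their promoters. Windows of 300 bases, 250 before the start and 50 after, were found for 65 of the 73 genes, on 16 chromosomes and in 71 windows. The letters CCGGAAG, the core bound by ETS-family factors such as GABPA, stood in 32.4% of the windows on either strand, against 13.0% of the 16953 windows of measured genes. The palindromic site of NRF1 was searched as GCGCA, any base and GCGC, or in reverse complement as GCGC, any base and TGCGC. It stood in 16.9% against 7.23%. ATGGCGGC, a site of YY1, stood in 15.5% against 3.52%. The letters TATAAA stood in 7.04% of member windows and 9.99% of all windows. At least 1 of the first 3 was in the window of 37 of the 65 genes. A match describes letters in a window and shows no binding, and the motifs can overlap.

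The 100 bases before the start are shown for 6 genes whose levels recur in the results: Mrpl27, Mrpl12, Mrpl17 and Mrpl3 for 1 low array, Mrpl48 and Mrps16 for the strains. Each reads 5′ to 3′ on the strand of the gene, and capitals mark CCGGAAG or its complement CTTCCGG, or the NRF1 letters in either orientation.
Mrpl27 (chr11:94653691-94653790, plus strand): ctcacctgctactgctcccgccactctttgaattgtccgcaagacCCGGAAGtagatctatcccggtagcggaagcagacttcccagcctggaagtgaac
Mrpl3 (chr9:105053168-105053267, plus strand): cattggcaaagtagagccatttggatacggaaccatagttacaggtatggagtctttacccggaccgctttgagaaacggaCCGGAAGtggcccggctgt
Mrpl48 (chr7:100583131-100583230, minus strand): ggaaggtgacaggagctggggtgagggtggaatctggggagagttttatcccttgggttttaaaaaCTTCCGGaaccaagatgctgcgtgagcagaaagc
Mrps16 (chr14:20393491-20393590, minus strand): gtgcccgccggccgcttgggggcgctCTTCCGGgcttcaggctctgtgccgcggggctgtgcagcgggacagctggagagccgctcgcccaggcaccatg
Mrpl12 (chr11:120484537-120484636, plus strand): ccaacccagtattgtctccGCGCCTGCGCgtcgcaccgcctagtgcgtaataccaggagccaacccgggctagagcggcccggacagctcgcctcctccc
Mrpl17 (chr7:105811088-105811187, minus strand): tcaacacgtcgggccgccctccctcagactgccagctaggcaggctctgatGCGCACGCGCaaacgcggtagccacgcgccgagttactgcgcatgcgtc
The ETS letters began 55 bases before the start in Mrpl27, 19 in Mrpl3, 34 in Mrpl48 and 74 in Mrps16, and the NRF1 letters 81 in Mrpl12 and 49 in Mrpl17.

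A start shared head to head with another gene was common as well. Of the 65 genes, 22 (33.8%) had an oppositely transcribed gene starting within 500 bases, against 14.5% of 13514 measured genes. Mrpl46 and Mrps11, of the large and the small subunit, start 42 bases apart. Mrps12 starts 147 bases from Sars2, the mitochondrial seryl-tRNA synthetase, and Mrpl43 starts 116 bases from Twnk, the mitochondrial DNA helicase. Mrpl49 starts 192 bases from Fau, a cytosolic ribosomal protein gene, and Mrpl47 starts 308 bases from Ndufb5, a complex I subunit.

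By the probe set with the highest mean, most mitoribosomal genes lay low together in 1 array. The rest of the arrays stayed close to each other. The mean departure of the 73 genes from their own means over 16 arrays was 0.092, -0.021, 0.076 and 0.048 in the A/J control arrays and -0.022, -0.009, -0.043 and 0.032 in the A/J risperidone arrays. It was -0.024, -0.010, 0.022 and -0.322 in the DBA/2J control arrays and 0.040, 0.016, 0.059 and 0.067 in the DBA/2J risperidone arrays. Replicate 4 of the DBA/2J controls was thus the lowest array by a wide margin, while the other 15 spanned -0.043 to 0.092. The DBA/2J control mean was -0.084 ± 0.160 (SD, n = 4) with replicate 4 and -0.004 ± 0.023 (SD, n = 3) without it. The A/J control mean was 0.049 ± 0.050, the A/J risperidone mean -0.010 ± 0.032 and the DBA/2J risperidone mean 0.045 ± 0.023 (SD, n = 4 each). In bulk tissue, fewer cells that express a gene and less of its RNA per cell cannot be told apart.

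**Figure D1:**
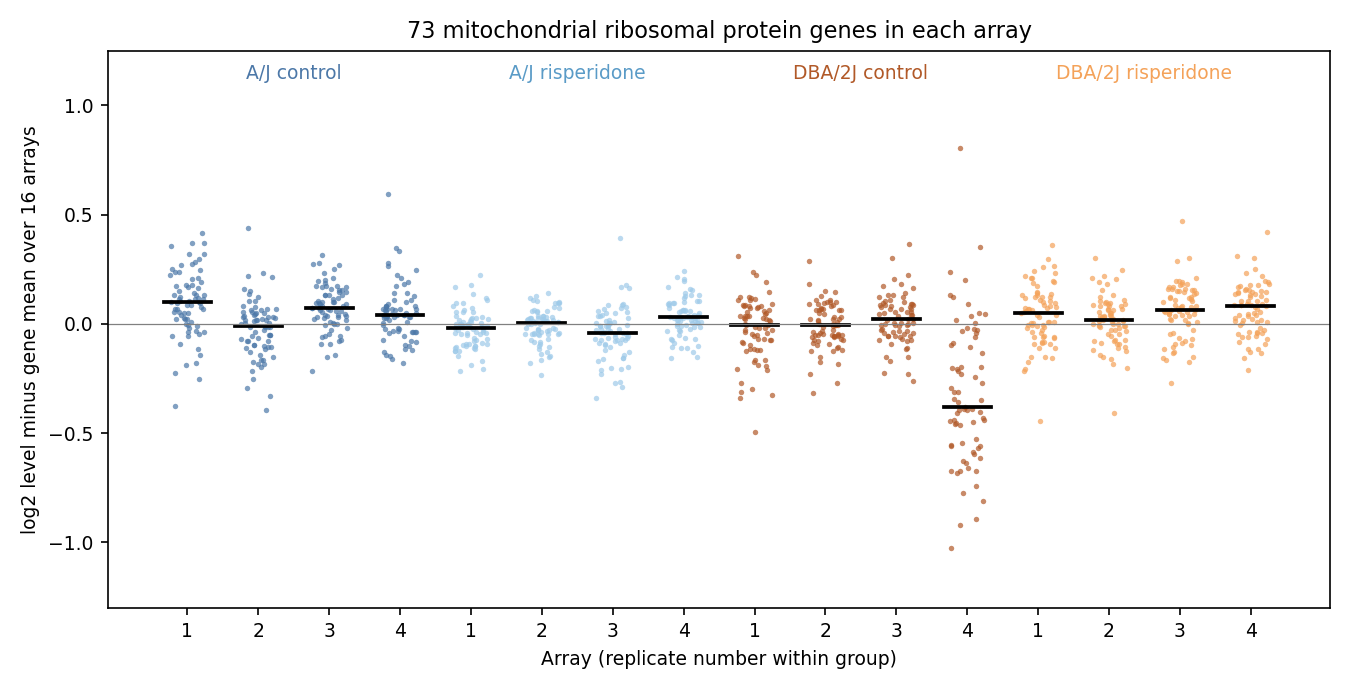
Level of each of the 73 genes in each array, as its log2 value minus the gene's mean over 16 arrays (y axis), by group and replicate (x axis), with 1 point per gene. The cloud of DBA/2J control replicate 4 sits low, with a mean of -0.322, while the other 15 arrays have means from -0.043 to 0.092.

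Gene by gene, replicate 4 of the DBA/2J controls lay below the mean of the other 3 arrays of its group in 60 of 73 genes, above it in 12 and level with it in 1. Over all genes, it lay below in 48.9% and above in 50.8%. The array was singled out because it stood apart, so these counts are a description without a test. The median departure of the genes was -0.353 on the log2 scale, against 0.007 over all 17097 genes. Replicate 4 was the lowest of the 16 arrays in 49 of the 73 genes (67.1%), against 23.3% of all genes, and the highest in 5, against 20.1%. Within its group it was the lowest in 55 genes and the highest in 9, against 36.5% and 36.7% of all genes. It lay at least 0.5 below in 25 genes (34.2%), against 8.14% of all genes. After a second quantile normalization, the median was -0.268 and 53 genes lay below. All these values come from 1 probe set per gene, the one with the highest mean (median level 7.59). The 56 other probe sets of the same genes, at a median level of 6.14, did not show it as clearly. Of these, 30 lay below in replicate 4, and their median departure was -0.047.

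The 5 genes in which replicate 4 lay furthest below its group all have a bacterial counterpart. Mrpl27, whose bacterial counterpart reaches the site of peptide bond formation, had 7.01, 7.19, 7.26 and 6.01 in DBA/2J control replicates 1 to 4. Its other 12 arrays spanned 6.82 to 7.46, so replicate 4 stood 1.14 below its group and below every other array. Mrpl20, a large-subunit protein that binds ribosomal RNA early in assembly in bacteria, had 8.13, 8.12, 8.12 and 7.13. Mrps14, a protein of the small-subunit head, had 8.81, 8.86, 8.94 and 7.89. In both genes the first 3 arrays were nearly equal and replicate 4 was about 1 log2 unit lower (0.99 and 0.98). Mrpl12, the stalk protein that recruits translation factors and also binds the mitochondrial RNA polymerase, had 8.03, 7.95, 7.95 and 7.03. Mrpl17 had 8.09, 8.14, 8.18 and 7.25. None of the other 12 arrays of these 2 genes lay below 7.69.

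A few genes went the other way. Mrpl54, specific to mitochondria, had 6.33, 6.24, 6.36 and 7.22 in DBA/2J control replicates 1 to 4, and no array outside that group exceeded 6.54. Mrps11, of the small-subunit platform, had 6.52, 6.80, 6.70 and 7.06, and lay 0.39 above the other 3. Mrpl46, which starts 42 bases from Mrps11 on the opposite strand, had 7.32, 7.43, 7.28 and 6.99 and lay 0.35 below. Mrpl50 lay 0.29 above. Replicate 4 was therefore high in some genes of the same ribosome and low in most.

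**Figure D2:**
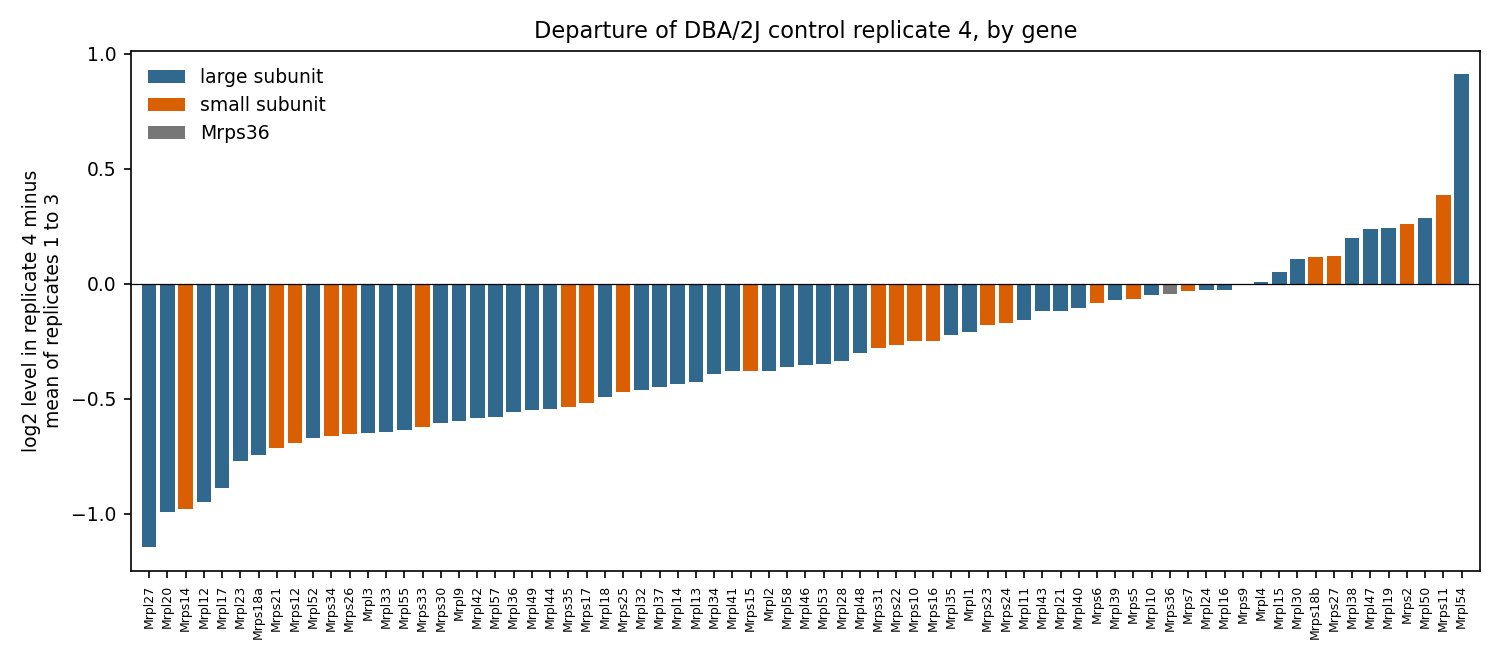
Departure of DBA/2J control replicate 4 from the mean of replicates 1 to 3 (y axis, log2), 1 bar per gene in order of size, coloured by subunit. The bars run from -1.14 in Mrpl27 to 0.91 in Mrpl54. Of the 73, 60 lie below 0, against 48.9% of all genes, with genes of both subunits among them.

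Most genes of each subunit lay below, against 48.9% of all genes. The median departure of replicate 4 was -0.380 in the 48 large-subunit genes, of which 40 lay below, and -0.258 in the 24 small-subunit genes, of which 19 lay below. Genes with a bacterial counterpart had a median of -0.292 (34 of 42 below) and mitochondria-specific genes one of -0.372 (25 of 30 below). Mrps36, which is not a ribosomal protein by current knowledge, had 8.22, 8.26, 8.25 and 8.20 and departed by -0.04. Of the genes named for disease or other roles, Mrpl3, Mrpl44, Mrps22, Mrps30 and Mrps18a lay lower in replicate 4, by -0.65, -0.54, -0.27, -0.61 and -0.74. Mrps18b, a paralogue of Mrps18a whose protein sits in the small subunit, lay 0.12 higher.

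Genes of the cytosolic ribosome and of the respiratory chain lay low in the same array, and other lists of mitochondrial gene expression had medians nearer 0. The lists were not matched for level. Genes other than members had a median departure of 0.073 at levels of 5 to 6 and of -0.157 at levels of 8 to 9. The 68 cytosolic ribosomal protein genes had a median departure of -0.463 (65 below), and the 69 genes of oxidative phosphorylation one of -0.433 (68 below). Over all genes, 48.9% lay below. The 4 mitoribosomal genes measured under other symbols (Dap3, Ptcd3, Chchd1 and Gadd45gip1) had a median of -0.455 and all lay below. The medians were 0.033 for 9 mitochondrial translation factors, -0.112 for 18 assembly factors of the mitoribosome and 0.027 for 15 mitochondrial aminoacyl-tRNA synthetases. They were 0.063 for 13 genes of mitochondrial transcription and RNA maintenance and 0.078 for 10 regulators. Tufm, the mitochondrial elongation factor that brings tRNA to the ribosome, had 7.11, 7.03, 6.94 and 7.02. Its probe set is of the class that can also match other transcripts. Tfam, which packages mitochondrial DNA, stood out in its list with 6.46, 6.45, 6.42 and 5.24. Polrmt, the mitochondrial RNA polymerase, departed by 0.06, Nrf1 by -0.21 and Gabpa by 0.10.

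**Figure D3:**
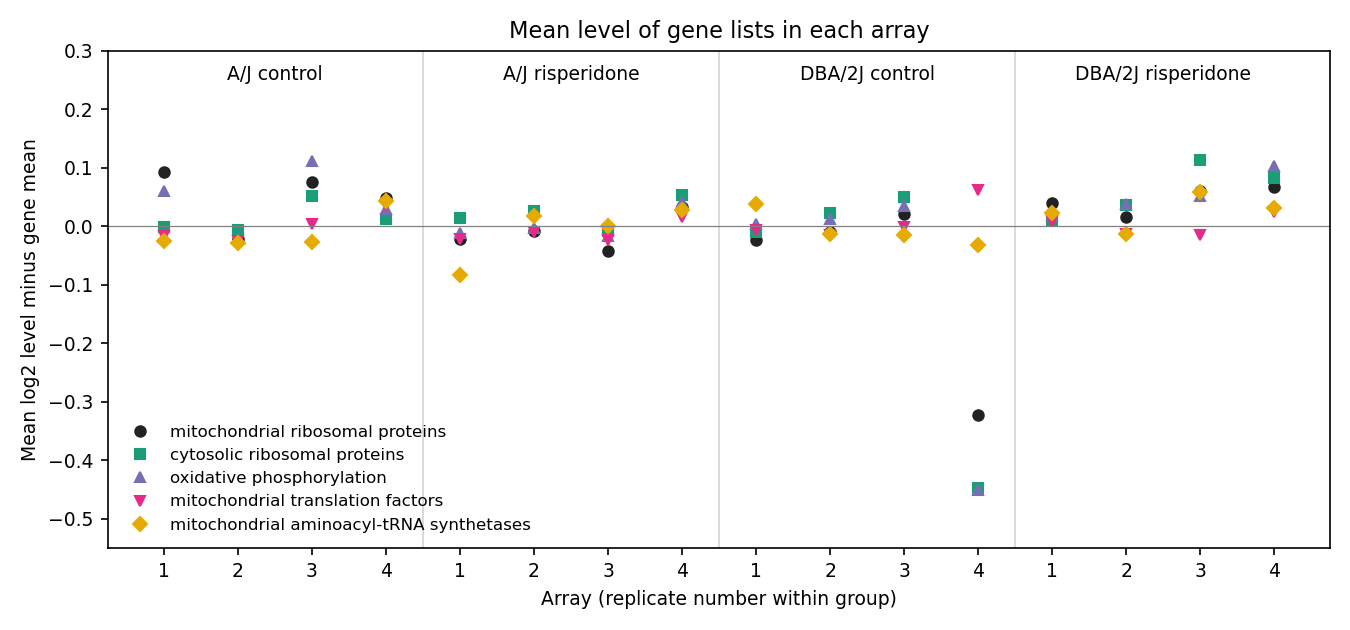
Mean departure of 5 gene lists in each array (y axis, log2 level minus the gene's mean over 16 arrays), by group and replicate (x axis), with 1 symbol per list. In DBA/2J control replicate 4 the mitoribosomal, cytosolic ribosomal and oxidative phosphorylation genes lie at -0.322, -0.447 and -0.452, with translation factors and synthetases near 0.

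Some measures of the array moved with this departure. Over all genes at levels of 7 to 8, the level band that holds 40 of the members, genes other than members had a median departure of -0.123 in replicate 4, and members one of -0.358. At levels of 9 to 10 the medians were -0.143 and -0.583. At levels of 7 to 8, 34 of the 40 members and 65.6% of the other genes lay below. At levels of 8 to 9 it was 10 of 11 members and 69.9%, and at 9 to 10 all 5 members and 67.7%. The interquartile range of replicate 4 was 2.35, against 2.49 to 2.59 in the other arrays. Among marker lists, the mean level of 8 of 9 oligodendrocyte markers was 7.95 in replicate 4 and 8.18 to 8.29 in the other DBA/2J controls. That of 7 of 8 microglial markers was 6.08 against 6.26 to 6.32, although 4 of the 7 lay above and their median departure was 0.10, with the lowest at -1.40. That of 9 of 12 markers of striatal projection neurons was 6.61 against 6.80 to 6.90. Other lists were higher in replicate 4: 6 thalamus markers had 5.78 against 5.48 to 5.67, and 10 markers of choroid plexus and ependyma, 8 of them above, had 4.85 against 4.51 to 4.72. That of 8 astrocyte markers was 8.41 against 8.40 to 8.49. The log2 scale has no level of 0 for an absent marker. Their part in the departure of the mitoribosomal genes was not tested.

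The first question of the design was whether risperidone changed these genes in A/J mice. No mitoribosomal gene passed the test in A/J, and neither did any other gene (0% of all genes called at an adjusted p under 0.05, limma). The median difference, risperidone minus control, was -0.0625 over the 73 genes, with 18 higher and 55 lower (53.6% of all genes were lower), against -0.010 over all genes. At an unadjusted p under 0.05 there was 1 member, against 4.87% of all genes. Leaving out DBA/2J control replicate 4, which changes only the estimate of the spread here, made that 8 members against 7.13%. The lowest difference was that of Mrpl47, a protein near the exit of the peptide tunnel. Its control arrays had 5.52, 5.17, 5.14 and 5.70 and its risperidone arrays 4.98, 5.20, 5.06 and 5.09, a difference of -0.30 (SE 0.13, adjusted p = 0.83). The groups overlap, and the spread of the controls was the wider. All of these levels but the 5.70 lay below the array medians of 5.66 to 5.71. Other differences were -0.215 for Mrps35, -0.19 for Mrps21 and -0.12 for Mrps36, and the highest were 0.17 for Mrps14, 0.11 for Mrps12 and 0.08 for Mrps15. Groups did not overlap in Mrpl4, Mrps21 and Mrps36, all lower with risperidone (3 of 73 genes, against 2.59% of all genes), and no member was higher without overlap (1.73% of all genes). With replicate 3 as the only A/J risperidone array, the median was -0.090, and the differences of Mrpl47, Mrps35 and Mrps14 were -0.32 (SE 0.21), -0.18 (SE 0.19) and 0.01 (SE 0.28). Markers of other cells also differed in level between these groups. The mean level of 4 of 5 blood markers was 8.95 to 9.47 in controls and 9.62 to 9.87 with risperidone, with all 4 markers higher and a median difference of 0.56. All 8 measured oligodendrocyte markers were lower (median -0.14), at mean levels of 8.43 to 9.10 in controls and 8.35 to 8.72 with risperidone, so the groups overlapped. None of these markers passed the test, and their part in the differences of the mitoribosomal genes was not tested.

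In DBA/2J mice no mitoribosomal gene passed either, with 9 genes called in all (0.0526%, 4 without replicate 4 or 0.0234%). With all arrays, 64 of the 73 genes were higher with risperidone, against 52.5% of all genes, and the median difference was 0.125. Without control replicate 4, 51 were higher, against 53.2%, and the median was 0.0525. The medians over all genes were 0.010 and 0.009. Members at an unadjusted p under 0.05 numbered 11 with all arrays, against 10.2% of all genes, and 5 without replicate 4, against 7.97%.

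Mrpl27 had the highest difference with all arrays, 0.42 (SE 0.19, adjusted p = 0.45). Its risperidone arrays had 7.11, 7.23, 7.34 and 7.46, and without the control at 6.01 the difference was 0.13 (SE 0.10, adjusted p = 0.79). Mrpl35 had control values of 6.22, 6.29, 6.49 and 6.11 and risperidone values of 6.62, 6.61, 6.72 and 6.58. The groups did not overlap, and the difference was 0.36 (SE 0.09, adjusted p = 0.18) with replicate 4 and 0.30 (SE 0.08, adjusted p = 0.25) without it. Mrpl49, specific to mitochondria, had 7.37, 7.38, 7.47 and 6.86 in controls and 7.78, 7.52, 7.60 and 7.52 with risperidone, a difference of 0.34 (SE 0.11, adjusted p = 0.31) and of 0.20 (SE 0.08, adjusted p = 0.50) without replicate 4. These 3 genes were named for the highest differences of this comparison, so their shared direction follows from the choice. None of the differences passed the test. All 10 markers of choroid plexus and ependyma were higher with risperidone without replicate 4, and 9 of 10 with it (medians 0.31 and 0.27). Their mean level was 4.51 to 4.85 in controls and 4.75 to 5.955 with risperidone, so the groups overlapped. Risperidone replicate 1 stood highest, with a mean departure of 0.854, against -0.354, -0.130 and -0.244 in replicates 2, 3 and 4. Of 9 markers of striatal projection neurons, 6 were higher with all arrays (median 0.24) and 7 without control replicate 4 (median 0.08). Of 8 oligodendrocyte markers, 6 and 7 were higher (medians 0.165 and 0.067). Of 5 cortex markers, 3 were lower with and without that array (medians -0.20 and -0.21). The part of these markers in the values above was not tested.

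Groups did not overlap in 5 genes that were higher with risperidone in DBA/2J (Mrpl35, Mrpl43, Mrpl49, Mrps16 and Mrps5), against 2.33% of all genes, and in 1 that was lower (Mrps36), against 1.98%. Without replicate 4 there were 7 higher, with Mrpl50 and Mrpl54 added, against 3.98% of all genes, and 1 lower, against 3.47%. Mrps36 had 8.22, 8.26, 8.25 and 8.20 in controls and 8.01, 8.15, 8.18 and 8.17 with risperidone, a difference of -0.105 (SE 0.07, adjusted p = 0.58). In A/J it had 8.39, 8.35, 8.29 and 8.31 in controls and 8.20, 8.26, 8.19 and 8.20 with risperidone, a difference of -0.12 (SE 0.07, adjusted p = 0.94). Its treated arrays thus lay below the controls in each strain, by small amounts that did not pass the test. At the lower end were also Mrpl19, whose difference was -0.14 with replicate 4 and -0.08 without it, and Mrpl54, at -0.11 and 0.12. The direction of Mrpl54 thus turned on 1 array.

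**Figure D4:**
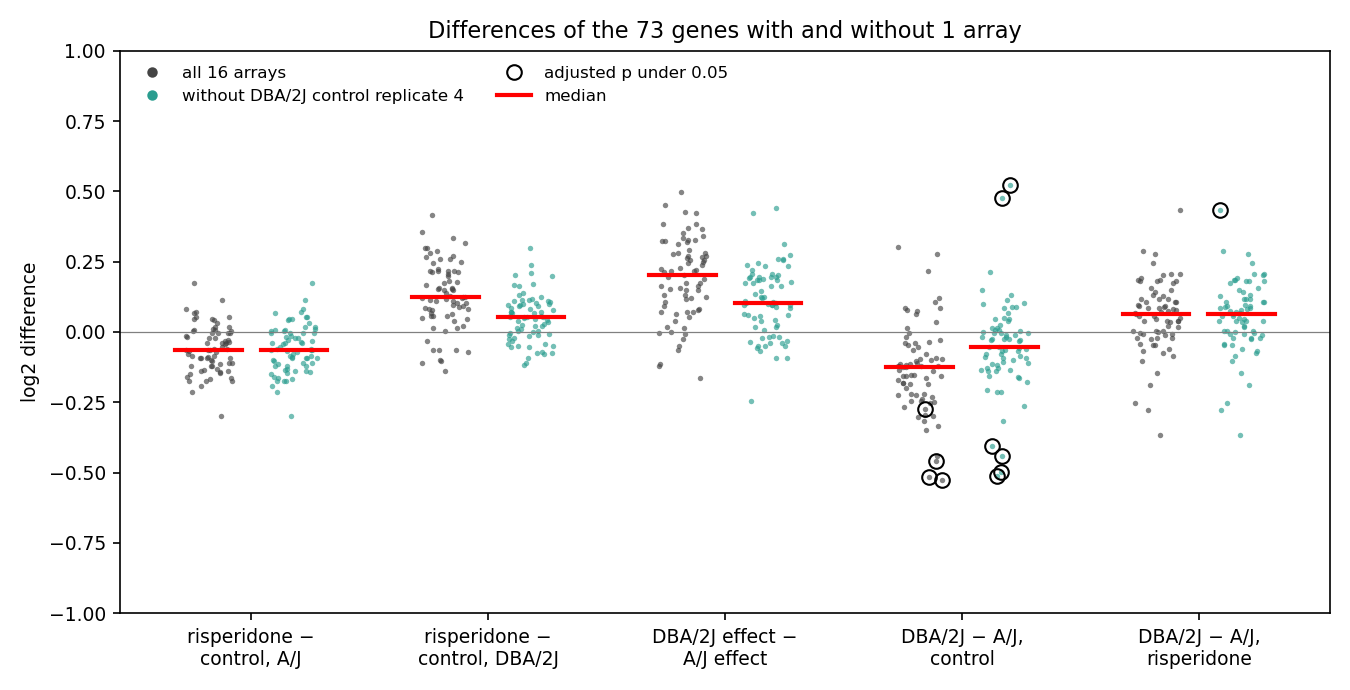
Log2 differences of the 73 genes (y axis) in the 5 comparisons (x axis), with all 16 arrays and without DBA/2J control replicate 4, with 1 point per gene, red bars at the medians and rings around genes that passed the test. The medians of the 3 comparisons that use the DBA/2J controls move towards 0 without the array, as from 0.125 to 0.0525 for risperidone in DBA/2J, and rings appear in the strain comparisons only.

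Whether the effect of risperidone differed between the strains was tested as an interaction, in which a positive value means a higher difference in DBA/2J than in A/J. No member and no other gene passed (0% of all genes, with and without replicate 4). Members at an unadjusted p under 0.05 numbered 12, against 8.14% of all genes, and 7 without replicate 4, against 7.96%. The median over the 73 genes was 0.203, with 64 positive (54.6% of all genes), and 0.104 without replicate 4, with 57 positive (55.1%), against 0.020 over all genes in both cases. The highest value was that of Mrpl35, 0.50 (SE 0.12, adjusted p = 0.33), and 0.44 (SE 0.11, adjusted p = 0.29) without replicate 4. Mrps21 had 0.45 and Mrpl52 0.43, and without replicate 4 they had 0.27 and 0.26. At the other end were Mrpl54 (-0.16), Mrps18b (-0.12) and Mrps11 (-0.12). Without replicate 4 these 3 were 0.07, -0.09 and -0.02, so that Mrpl54 changed sign. With replicate 3 as the only A/J risperidone array, the median was 0.230, and Mrpl35 had 0.51 (SE 0.18), Mrps21 0.52 (SE 0.26) and Mrpl52 0.54 (SE 0.26).

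By the probe set with the highest mean, the strains differed in the signal of a few mitoribosomal genes. Whether the strains differ in sequence under these probes was not tested. In control mice 4 genes passed the test, all lower in DBA/2J (Mrps5, Mrpl48, Mrpl35 and Mrps16), against 3.46% of all genes called in either direction, 2.01% lower and 1.45% higher. A count of 4 in 73 is near that background. Without replicate 4, Mrps5, Mrpl48 and Mrpl35 still passed, Mrps16 did not, and Mrpl47, Mrps12 and Mrps14 passed in addition, the last 2 being higher in DBA/2J. That made 6 members, against 3.26% of all genes (1.79% lower and 1.47% higher). The median of the 73 genes was -0.125 with replicate 4, with 61 lower (50.2% of all genes), and -0.054 without it, with 50 lower (50.4%), against -0.003 and -0.002 over all genes.

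Mrps5, a small-subunit protein at the entry of the messenger RNA, had 6.95, 7.02, 6.79 and 6.63 in A/J controls and 6.31, 6.35, 6.35 and 6.27 in DBA/2J controls. The groups did not overlap, and the difference was -0.53 (SE 0.08, adjusted p = 0.00067), or a 1.44-fold lower signal of this probe set. Its risperidone arrays had 6.75, 6.64, 6.75 and 6.72 in A/J and 6.43, 6.38, 6.49 and 6.45 in DBA/2J, again without overlap, at -0.28 (SE 0.08, adjusted p = 0.17). Without replicate 4 the difference in controls was -0.51 (adjusted p = 0.0016). The other 3 probe sets of Mrps5 had strain differences of 0.31, -0.40 and 0.01 in controls, and none passed.

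Mrpl48, specific to mitochondria, had 7.98, 7.76, 7.90 and 7.97 in A/J controls and 7.58, 7.44, 7.36 and 7.16 in DBA/2J controls, a difference of -0.52 (SE 0.09, adjusted p = 0.0026) and of -0.44 (adjusted p = 0.0060) without replicate 4. Its second probe set also passed, at -0.42 (SE 0.10, adjusted p = 0.017). The first is of the class that can also match other transcripts, as is the probe set of Mrps12. With risperidone the A/J arrays had 7.66, 7.63, 7.80 and 7.82 and the DBA/2J arrays 7.53, 7.44, 7.35 and 7.58. These groups did not overlap either, and the difference was -0.25 (SE 0.09, adjusted p = 0.35). Mrpl48 was lower in every DBA/2J array than in every A/J array.

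Mrpl35, a large-subunit protein, had 6.88, 6.72, 6.73 and 6.62 in A/J controls against the 6.22, 6.29, 6.49 and 6.11 of DBA/2J controls, a difference of -0.46 (SE 0.09, adjusted p = 0.0034). In risperidone mice the strains overlapped, with 6.55, 6.67, 6.58 and 6.58 in A/J and 6.62, 6.61, 6.72 and 6.58 in DBA/2J, and the difference was 0.04 (adjusted p = 0.94). A second probe set of Mrpl35 behaved otherwise. It was lower in DBA/2J by -1.66 (SE 0.16, adjusted p = 2.94e-06) in control mice and by -1.06 (adjusted p = 0.0016) in risperidone mice. With replicate 3 as the only A/J risperidone array the latter was -1.48 (adjusted p = 0.0077, with the spread taken from the other groups).

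Mrps16 had 7.71, 7.61, 7.66 and 7.66 in A/J controls and 7.40, 7.44, 7.50 and 7.20 in DBA/2J controls, a difference of -0.28 (SE 0.08, adjusted p = 0.0495). Without replicate 4 it was -0.21 (adjusted p = 0.097). All 8 risperidone arrays lay between 7.58 and 7.76, at the level of the A/J controls. Mrpl47, at 4.61, 4.98, 5.06 and 5.12 in DBA/2J controls, was lower than in A/J by -0.44 (SE 0.13, adjusted p = 0.057) with replicate 4 and by -0.50 (adjusted p = 0.042) without it. These DBA/2J levels lay below the median of every array (5.66 to 5.71). Mrpl47 was left out where only probe sets above the median level were used.

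Mrps12, which forms part of the decoding centre, had 7.82, 7.87, 7.98 and 8.16 in A/J controls and 8.42, 8.38, 8.50 and 7.74 in DBA/2J controls. Replicate 4 was the lowest of all 8. The difference was 0.30 (SE 0.14, adjusted p = 0.27) with it and 0.48 (SE 0.11, adjusted p = 0.015) without it. In risperidone mice Mrps12 had 7.98, 8.15, 7.86 and 8.29 in A/J and 8.44, 8.41, 8.67 and 8.50 in DBA/2J, with no overlap. That difference was 0.44 (adjusted p = 0.24) with all arrays and passed (adjusted p = 0.037) in the fit without DBA/2J control replicate 4, which changes only the estimate of the spread. It was the only member called between the strains in risperidone mice in that fit, against 0 with all arrays (0.643% of all genes called with all arrays, 1.05% without replicate 4).

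Mrps14 had 8.32, 8.18, 8.42 and 8.47 in A/J controls, all below the 8.81, 8.86 and 8.94 of DBA/2J control replicates 1 to 3 and above the 7.89 of replicate 4. The difference was 0.28 (SE 0.16, adjusted p = 0.39) with replicate 4 and 0.52 (SE 0.09, adjusted p = 0.0018) without it. Of its other probe sets, 1 was higher in DBA/2J with all arrays, by 0.48 (SE 0.09, adjusted p = 0.0027), and the other lay at 0.21 (adjusted p = 0.22). The risperidone arrays were 8.47, 8.59, 8.36 and 8.66 in A/J and 8.79, 8.82, 8.86 and 8.72 in DBA/2J, again without overlap.

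**Figure D5:**
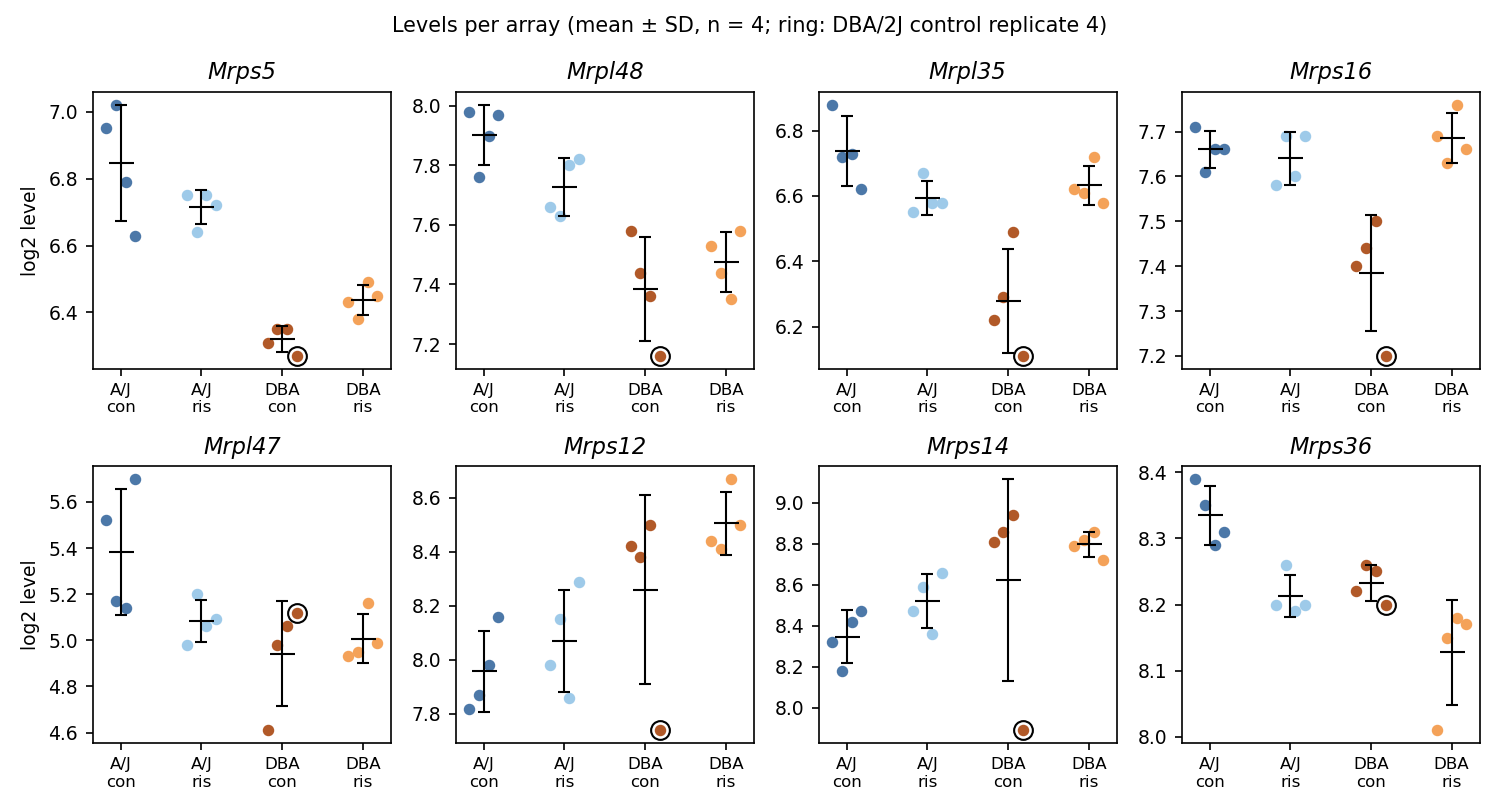
Log2 levels per array (y axis) by group (x axis) for the genes called between the strains with or without DBA/2J control replicate 4 and for Mrps36, each panel on a scale of its own, with bars at the mean ± SD (n = 4) and a ring around that array. In Mrps12 and Mrps14 the ringed array, at 7.74 and 7.89, lies below the other 3 of its group, at 8.38 to 8.50 and 8.81 to 8.94.

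Over the whole family, groups of the strains did not overlap in 9 genes of control mice, all lower in DBA/2J (4.96% of all genes were lower without overlap and 4.17% higher). Without replicate 4 there were 10 lower, against 7.09%, and 3 higher, against 6.86%. In risperidone mice 8 genes were higher without overlap (4.90% of all genes) and 4 lower (2.96%). Mrps5, Mrpl48, Mrps36 and Mrpl30 were lower without overlap in both. The median strain difference in risperidone mice was 0.065, with 51 of 73 genes higher (54.9% of all genes), against 0.018 over all genes. At the ends in risperidone mice, Mrpl15 had -0.36 (SE 0.14, adjusted p = 0.38) and Mrpl27 0.29 (SE 0.19, adjusted p = 0.70). With replicate 3 as the only A/J risperidone array, the median was 0.0725. In that fit Mrpl15 had -0.59 (SE 0.23), Mrps12 0.645 (SE 0.23), Mrps14 0.44 (SE 0.28), Mrpl27 0.26 (SE 0.32), Mrps5 -0.31 (SE 0.14) and Mrpl48 -0.33 (SE 0.16).

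Among partners of the mitoribosome, Dap3, a small-subunit protein that carries another symbol, was lower in DBA/2J controls by -0.79 (SE 0.09, adjusted p = 2.81e-05), and in DBA/2J had 7.28, 7.18, 7.20 and 7.14. Without replicate 4 the difference was -0.77 (adjusted p = 0.00011). Lrpprc, which stabilises mitochondrial messenger RNA, was lower by -0.40 (adjusted p = 0.018), and by -0.37 (adjusted p = 0.038) without replicate 4. No gene among 9 translation factors, 18 assembly factors, 15 synthetases and 10 regulators passed between the strains in controls, with or without replicate 4. None of the 69 oxidative phosphorylation genes did with all arrays, and 1 (Atp5g1) was higher without it. Of 68 cytosolic ribosomal protein genes, 1 was higher (Rpl14) and 3 were lower (Rps2, Rplp0 and Rps15a). Without replicate 4, Rps15a was no longer called and Rps14 was, which made 2 higher and 2 lower. Markers of other cells differed between the same groups: the mean level of the microglial markers was 6.59 to 6.76 in A/J and 6.08 to 6.32 in DBA/2J controls, and that of the oligodendrocyte markers 8.43 to 9.10 and 7.95 to 8.29. All 6 thalamus markers were lower in DBA/2J controls as well (median -0.55), with mean levels of 5.53 to 7.12 in A/J and 5.48 to 5.78 in DBA/2J. Of 9 markers of striatal projection neurons, 6 were lower and 3 higher (median -0.165). Ppp1r1b and Pde10a were called lower with all arrays, and neither without replicate 4. The microglial Cx3cr1 and P2ry12 and the oligodendrocyte Mog were called lower with and without replicate 4, and Mag with all arrays only. Of 8 astrocyte markers, 4 were higher and 4 lower, and Gfap was called lower with and without replicate 4. Of 6 endothelial markers, 4 were higher and 2 lower, and Ly6c1 was called lower with all arrays only. Of 10 markers of choroid plexus and ependyma, 8 were lower and 2 higher (median -0.19). Of 5 cortex markers, 3 were higher and 2 lower, and Fezf2 was called higher. Their part in the strain differences was not tested.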

How the data were processed

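Total RNA of 16 striata was measured on Affymetrix perfect-match mouse arrays. Per the submitters' processing notes the arrays were normalised with RMA (version not given in the sources used here), and the deposited values are log2 levels per probe set with 2 decimals, used as they stand. All 45037 probe sets other than array controls entered the tests, whatever their level. A gene's value is that of the probe set with the highest mean over 16 arrays among those naming it alone. This left out 6 probe sets that name a mitoribosomal gene with another gene, and the 56 other probe sets of the members were examined separately.

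In limma 3.58.1 (R 4.3.3), lmFit and eBayes fitted 4 group means over the 16 arrays. The two-sided p-values of each of 5 comparisons received a Benjamini-Hochberg adjustment over 45037 probe sets, and a gene was called at an adjusted p under 0.05. SE is limma's. The fit was checked on simulated data, with changes of known size put into the DBA/2J risperidone arrays. The test called 1 of 50 changes of 0.3, 35 of 50 changes of 0.6 and 49 of 50 changes of 1. Differences of 0.3 would thus seldom pass, and a gene that did not pass may still differ by such an amount. Genes named with values are those called with or without DBA/2J control replicate 4, the 3 highest and 3 lowest differences of each comparison, the 5 lowest and 3 highest departures of that array, and a fixed set of known roles. Genes without overlap between groups, head-to-head neighbours and the other probe sets are named besides. Of 78 mitoribosomal genes with a listed role, 5 were not matched by the rule and are not analysed here. The members, lists and named genes were chosen with earlier results of these data known. The strain share is the median position of 49 marker probe sets between the control means, with the log2 values and log2 means first turned back into unlogged levels. Whether replicate numbers pair the arrays was not settled. In each of 4 comparisons, 1 of 4 same-numbered pairs correlated above 0.1. The mean correlation was 0.037 to 0.070 for same-numbered pairs and -0.023 to -0.012 for other pairs. The main fit used no pairing. Other settings were array weights, the replicate block, trend and robust eBayes, averaged probe sets, only probe sets above the median level (71 of 73 members), median centring, a repeated quantile normalization, and fits without single arrays or without those standing apart.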

Additional observations from a re-analysis of the deposited data

Results flagged for a closer look

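In the groups of 4 arrays, a value was marked where the highest or lowest array lay apart from the nearest other by more of the group's range than the 95% critical value of Dixon's test allows. Over 116 group values of the 28 named genes and the family mean, 11 were marked. Chance marks about 1 in 20 groups, but some of these genes were named because DBA/2J control replicate 4 lay far from its group in them, so the count is not set against chance. The mean departure of the 73 genes was marked in the DBA/2J controls, for the -0.322 of replicate 4. That array was also marked in 8 genes. It was low for Mrpl12 (7.03), Mrpl17 (7.25), Mrpl20 (7.13), Mrpl3 (7.13), Mrpl49 (6.86), Mrps12 (7.74) and Mrps14 (7.89), and high for Mrpl54 (7.22). Outside it, Mrpl50 was low in A/J control replicate 1 (7.04, against 7.28 to 7.30 in the other 3), and Mrps36 was high in A/J risperidone replicate 2 (8.26, against 8.19 to 8.20).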

How the results depend on the processing

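With 9 other settings and each of 16 arrays left out in turn, no member was called for risperidone in either strain or for the difference of its effects. Leaving out 1 array at a time, the median difference of the 73 genes ranged from -0.088 to -0.0525 for risperidone in A/J, from 0.0525 to 0.171 in DBA/2J, from 0.104 to 0.239 for the difference of the effects, from -0.180 to -0.054 between strains in controls and from 0.053 to 0.073 in risperidone mice. The ends at 0.0525 in DBA/2J, 0.104 and -0.054 are those without DBA/2J control replicate 4. With array weights these 3 medians were 0.065, 0.125 and -0.068. Calls between strains in controls ranged from 3 to 6 with 1 array left out. Mrps5, Mrpl48 and Mrpl35 passed in each of those fits, and Mrps16 in 1 of 16. They were 6 with array weights, 5 with median centring and 3 with the replicate block, which left out Mrps16 (adjusted p = 0.071) and changed no other call of a member. With all probe sets of a gene averaged, the difference of Mrps5 was -0.15 (adjusted p = 0.18), and 1 member, Mrpl35, was called between strains in risperidone mice (-0.47, adjusted p = 0.0019), against 0 with 1 probe set per gene. Leaving out 1 array gave 0 to 1 such calls.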
